A study of Homo sapiens with 19 samples.

Results

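The genes described here are 8 genes of the hypoxia-inducible factor (HIF) pathway: ADM, ANGPTL4, EGLN3, VEGFA, EGLN1, EGLN2, HIF1A and HIF1AN. They were chosen by name, from their levels in these same samples, so their values and calls below are a description, given with no p-value, and support nothing. All 8 were matched by gene name among 31033 gene names on the array, with 13 probes of 50238. The cells were THP-1, a human monocytic leukaemia line grown as a single line in culture. Every flask, controls included, had been differentiated with 30 nM PMA, a phorbol ester that drives these cells towards a macrophage-like state, and was then rested. Treated flasks received 0.1 mM vit C (vitamin C, ascorbate), while untreated (UT) flasks received none, and RNA was taken 8, 24, 48 and 96 h later. The 19 arrays comprised 2 UT and 3 vit C-treated arrays at 8 h, 3 and 2 after 24 h, 2 and 2 after 48 h, and 3 and 2 after 96 h.

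HIF is the transcription factor with which cells answer low oxygen. Its alpha subunit, encoded by HIF1A, is made continuously and is marked for destruction by the prolyl hydroxylases EGLN1, EGLN2 and EGLN3, while the asparaginyl hydroxylase HIF1AN blocks its transcriptional activity. These enzymes need oxygen, iron and 2-oxoglutarate, and ascorbate helps to keep their iron in the reduced state. ADM (a vasodilator peptide), ANGPTL4 (an inhibitor of lipoprotein lipase), VEGFA (the main angiogenic growth factor) and EGLN3 itself are well-known genes that HIF switches on, and ANGPTL4 is also a target of the PPAR nuclear receptors. Macrophages are known to use HIF in glycolysis and inflammatory signalling.

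HIF binds DNA at a core written ACGTG or GCGTG, so the stretch upstream of the genes was read for these letters. The RefSeq promoter table (GRCh38.p14) held 7 of the 8 genes, with 9 starts, and VEGFA was missing from it. The 250 bases before the start are shown for the genes with the largest vit C differences and for EGLN1, with a core on either strand in capitals.
ADM, chr11:10304823-10305072, plus strand: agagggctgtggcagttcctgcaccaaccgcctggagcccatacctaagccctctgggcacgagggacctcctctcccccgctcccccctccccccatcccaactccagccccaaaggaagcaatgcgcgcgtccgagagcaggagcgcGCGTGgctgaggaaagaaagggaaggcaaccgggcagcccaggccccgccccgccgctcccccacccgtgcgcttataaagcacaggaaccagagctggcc
ANGPTL4, chr19:8363905-8364154, plus strand: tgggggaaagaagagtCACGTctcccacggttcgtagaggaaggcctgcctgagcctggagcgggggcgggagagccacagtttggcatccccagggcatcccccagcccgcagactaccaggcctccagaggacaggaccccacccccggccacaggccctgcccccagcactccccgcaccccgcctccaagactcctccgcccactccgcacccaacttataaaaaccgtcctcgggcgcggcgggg
EGLN3, chr14:33951075-33951324, minus strand: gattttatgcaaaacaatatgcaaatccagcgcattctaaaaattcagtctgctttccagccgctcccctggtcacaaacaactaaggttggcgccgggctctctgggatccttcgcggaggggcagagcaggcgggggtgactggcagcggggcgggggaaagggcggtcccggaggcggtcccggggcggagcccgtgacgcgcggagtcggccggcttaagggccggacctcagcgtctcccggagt
EGLN1, chr1:231422288-231422537, minus strand: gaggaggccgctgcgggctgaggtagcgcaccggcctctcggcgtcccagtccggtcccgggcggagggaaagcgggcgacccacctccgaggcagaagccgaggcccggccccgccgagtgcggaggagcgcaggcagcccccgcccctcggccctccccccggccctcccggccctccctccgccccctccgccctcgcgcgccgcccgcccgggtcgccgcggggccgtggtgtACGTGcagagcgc
The ADM sequence held GCGTG 101 bases before the start, EGLN1 held ACGTG 13 bases before it, and ANGPTL4 held ACGTG on the opposite strand 234 bases before it. No core was found in the EGLN3 window. In all, 5 of the 9 windows held at least 1 core, and the match in EGLN2 was a CACGTG, which reads as ACGTG on both strands. Among 35116 promoters of the same length, 43.2% held at least 1 core, 18.5% ACGTG and 32.2% GCGTG, so a match is common and describes the letters only.

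The array read each gene with probes of 60 bases, and the first 30 bases of the probes on which the results turn are given because 4 different probes read VEGFA.
ADM, P127948: gtgtaaagttgttcgccgcgtggaatgtga
ANGPTL4, P159325: tgtaggtcccctggggacacaagcaggcgc
EGLN3, P360379: cacagagaggcatcacggaagccttaacag
VEGFA, P70398: ccagcacataggagagatgagcttcctaca
VEGFA, P81805: gtgacccagcacggtccctcttggaattgg
VEGFA, P12401: agtgttttatatacggtacttatttaatat
VEGFA, P179400: ccaacttctgggctgttctcgcttcggagg
No pair of the 4 VEGFA probes shared a run of over 7 bases, and the same held for the 3 EGLN1 probes.

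Levels below are normalized log2 signals, the log2 of a probe's processed signal minus the log2 of that array's 75th percentile, so that 0 is the 75th percentile and a step of 1 is a doubling. Where a gene had several probes, the brightest was used unless another is named. The 75th percentile itself lay between 290.2 and 903.5 signal units, 57.5 to 72.8% of probes were well above background, and arrays of the same group correlated at r of 0.962 to 0.990. Of 8 macrophage markers, 6 (CD14, CD68, ITGAM, CSF1R, SPI1 and CD163) were well above background on all 19 arrays and LYZ on 18, while MRC1 was on none. CD3D (T cells), COL1A2 (fibroblasts) and CDH1 (epithelium) were on none, and MS4A1 (B cells) on 1. Of the other lymphoid and stromal markers, CD3E, CD79A and PDGFRA were among those on all 19.

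The arrays lay on 4 slides, and no slide held UT and vit C-treated arrays of the same time point. The UT arrays of 8, 24 and 48 h were all on slide 1, with 1 of 96 h, whereas the vit C-treated arrays of 8 and 24 h were on slide 2 with 2 UT arrays of 96 h. Slide 4, scanned on another day, held the 96 h arrays of the vit C arm and no others. Hence the effect of vit C and of the slide cannot be told apart within a time point, while the UT course from 8 to 48 h and the vit C course from 8 to 24 h each lie within 1 slide. Slide as a fixed block, used below, takes the gap between slides 1 and 2 from UT 96 h, the group on both. The gap between slides 2 and 3 comes from vit C 48 h. UT 96 h replicate 3 stood apart on several probes of these genes, and the 96 h values that it moved most are also given without it.

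ADM was lower in vit C-treated than in UT cells at all 4 time points, by 2.40-fold at 8 h, 4.56-fold after 24 h, 3.68-fold at 48 h and 1.61-fold at 96 h. In UT cells its level was 2.06 and 2.10 at 8 h, 2.52, 2.12 and 1.86 after 24 h, 1.65 and 1.75 after 48 h, and 1.84, 1.54 and 1.71 after 96 h. In vit C-treated cells it was 0.67, 0.91 and 0.89 at 8 h, -0.11 and 0.06 after 24 h, -0.27 and -0.08 after 48 h, and 1.19 and 0.82 after 96 h. No vit C-treated array reached a UT array at any time point, and the gap was widest at 24 and 48 h and narrowest at 96 h.

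The log2 difference of ADM (vit C minus UT, ± SE of the fit) was -1.26 ± 0.21 at 8 h, -2.19 ± 0.21 after 24 h, -1.88 ± 0.23 after 48 h and -0.69 ± 0.21 after 96 h. UT cells moved little over time, by -0.39 ± 0.21 between 8 and 96 h. Vit C-treated cells differed from their 8 h level by -0.85 ± 0.21 after 24 h and by 0.19 ± 0.21 at 96 h. With slide as a fixed block the difference was -1.05 at 8 h, -1.98 after 24 h and -1.77 at 48 h. In order of level, the 4 UT groups came first and the 4 vit C-treated groups last, and the UT 48 h and UT 96 h groups, both at 1.70, did not differ beyond their spread. The same was true of UT 24 h and UT 8 h, and of vit C 96 h and vit C 8 h.

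**Figure D1:**
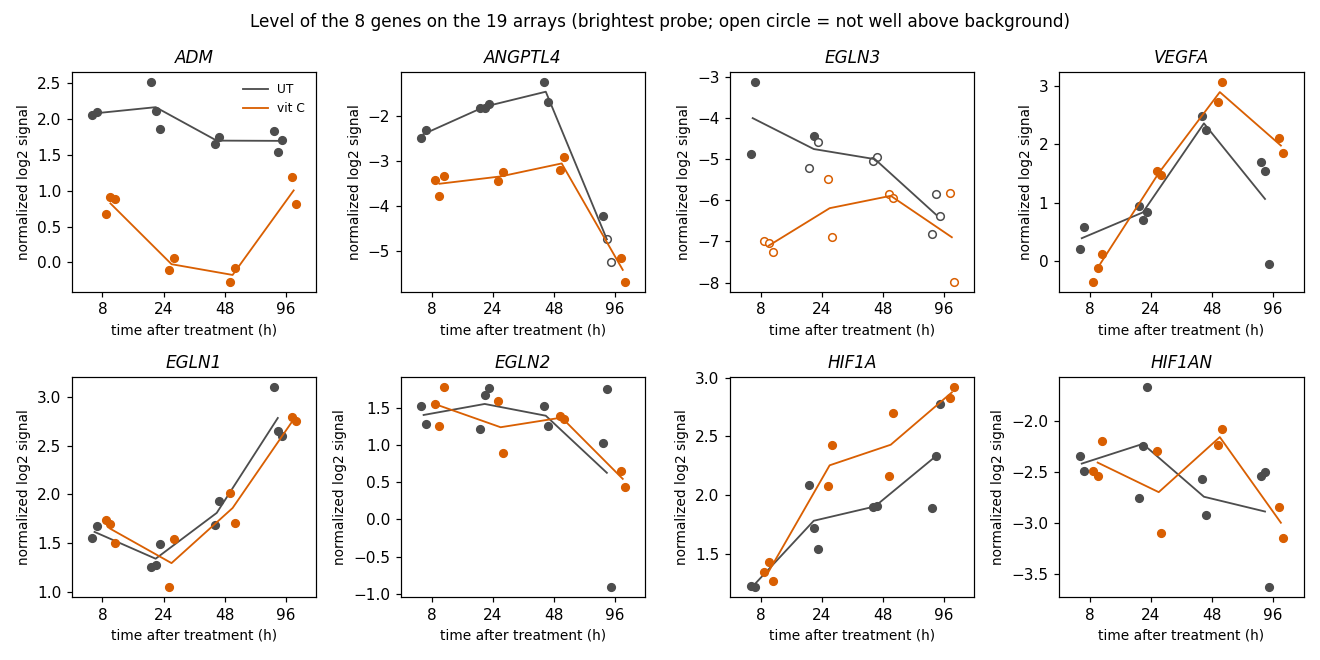
Normalized log2 signal (y axis) of the brightest probe of each of the 8 genes at 8, 24, 48 and 96 h (x axis, evenly spaced), with 1 circle per array, UT in grey and vit C-treated in orange, and lines through the group means. Open circles are arrays on which the probe was not well above background. The ADM arrays of the 2 arms do not overlap at any time point, whereas those of EGLN1 overlap at each.

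ANGPTL4 was lower in vit C-treated cells from 8 to 48 h, by 2.16-fold, 2.94-fold and 3.03-fold in turn, and its level was lowest at 96 h in both arms. Its UT level was -2.49 and -2.30 at 8 h, -1.81, -1.82 and -1.72 after 24 h, -1.23 and -1.67 after 48 h, and -4.23, -4.74 and -5.26 after 96 h. The vit C-treated level was -3.41, -3.78 and -3.32 at 8 h, -3.44 and -3.24 after 24 h, -3.20 and -2.90 after 48 h, and -5.16 and -5.69 after 96 h. The arms did not overlap from 8 to 48 h and overlapped at 96 h, where the probe was not well above background on 2 of the 3 UT arrays.

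The log2 difference of ANGPTL4 was -1.11 ± 0.28 at 8 h, -1.55 ± 0.28 after 24 h, -1.60 ± 0.30 after 48 h and -0.67 ± 0.28 after 96 h. Against 8 h, UT cells differed by 0.94 ± 0.30 at 48 h and by -2.35 ± 0.28 at 96 h. Vit C-treated cells differed from their own 8 h level by 0.45 ± 0.28 at 48 h and by -1.92 ± 0.28 at 96 h. With slide as a fixed block the differences shrank to -0.34 at 8 h, -0.78 after 24 h and -0.98 at 48 h, since the block rests on UT 96 h, where the slide 2 arrays differed from the slide 1 array by -0.77 for this gene. After normexp background correction they were -0.38 at 8 h, -0.93 after 24 h, -0.76 after 48 h and -0.74 after 96 h. That correction adds an offset of 50 signal units, which by itself shrinks differences at low signal. From 8 to 48 h the ANGPTL4 signals lay between 31.68 and 143.3 units.

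EGLN3, the hydroxylase that HIF itself induces, was near background and had only bounds in most groups. Its probe was well above background on 3 of the 19 arrays, all of them UT. The level was -4.89 and -3.13 in UT cells at 8 h, compared with -7.00, -7.05 and -7.27 after vit C, and after 24 h it was -5.23, -4.45 and -4.60 against -5.49 and -6.90. No vit C-treated array reached a UT array at 8 or 24 h. EGLN3 was therefore at least 1.91-fold lower with vit C at 8 h, a bound set by the lowest signal that counts as well above background. At 24 h the same calculation gave 1.28-fold. That is no firm bound, since the UT arrays at -5.23 and -4.60 were not well above background either. The 8 h bound was 1.04-fold without UT 8 h replicate 2 and 3.51-fold without replicate 1. No 24 h value could be given without UT 24 h replicate 2, the one UT array of that time well above background. Taken at face value, the log2 difference at 8 h was -3.09 ± 0.60, though the vit C-treated arrays were not well above background. It became -0.44 after normexp background correction with its offset, and ranged from -3.98 to -2.21 when either UT 8 h array was left out. At 48 and 96 h both arms were not well above background and no fold is given. UT cells were at least 2.01-fold lower at 96 h than at 8 h, a bound that was 1.09-fold without UT 8 h replicate 2 and 3.70-fold without replicate 1.

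VEGFA was higher at 24 and 48 h than at 8 h in both arms. On its brightest probe (P70398) the UT level was 0.21 and 0.58 at 8 h, 0.95, 0.71 and 0.85 after 24 h, 2.48 and 2.24 after 48 h, and 1.70, 1.54 and -0.04 after 96 h. In vit C-treated cells it was -0.35, -0.12 and 0.13 at 8 h, 1.55 and 1.47 after 24 h, 2.72 and 3.07 after 48 h, and 2.11 and 1.85 after 96 h. The arms were apart at every time point, vit C-treated arrays being below UT arrays at 8 h and above them at 24, 48 and 96 h.

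At 48 h the VEGFA level was 3.92-fold that at 8 h in UT cells and 8.05-fold in vit C-treated cells. The log2 difference between the arms was -0.51 ± 0.39 at 8 h, 0.67 ± 0.39 after 24 h, 0.53 ± 0.42 after 48 h and 0.91 ± 0.39 after 96 h. With slide as a fixed block the 8 h value turned to 0.45, and the 24 and 48 h values were 1.63 and 1.31. This block rests on UT 96 h, where the slide 2 arrays, replicate 3 (-0.04) among them, differed from the slide 1 array by -0.95. The block was not fitted without replicate 3. Without UT 96 h replicate 3 the 96 h value was 0.36.

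The other VEGFA probes were also highest at 48 h, but did not give the same size of difference between the arms. On P12401 the difference was 0.31 ± 0.25 at 8 h, 1.28 ± 0.25 after 24 h, 1.63 ± 0.27 after 48 h and 0.86 ± 0.25 after 96 h, and on P81805 it was -0.40 ± 0.20, 0.33 ± 0.20, 0.66 ± 0.22 and 0.59 ± 0.20. On P179400 it was -0.34 ± 0.52, -0.01 ± 0.52, 0.47 ± 0.57 and 1.05 ± 0.52. The probes thus opposed each other in sign at 8 and 24 h and shared a sign at 48 and 96 h. UT 96 h replicate 3 was the lowest UT 96 h array on P70398 (-0.04), P179400 (-2.84) and P81805 (0.92), and the highest on P12401 (1.62). Without it the 96 h difference was 0.42 on P81805, 1.05 on P12401 and 0.31 on P179400.

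**Figure D2:**
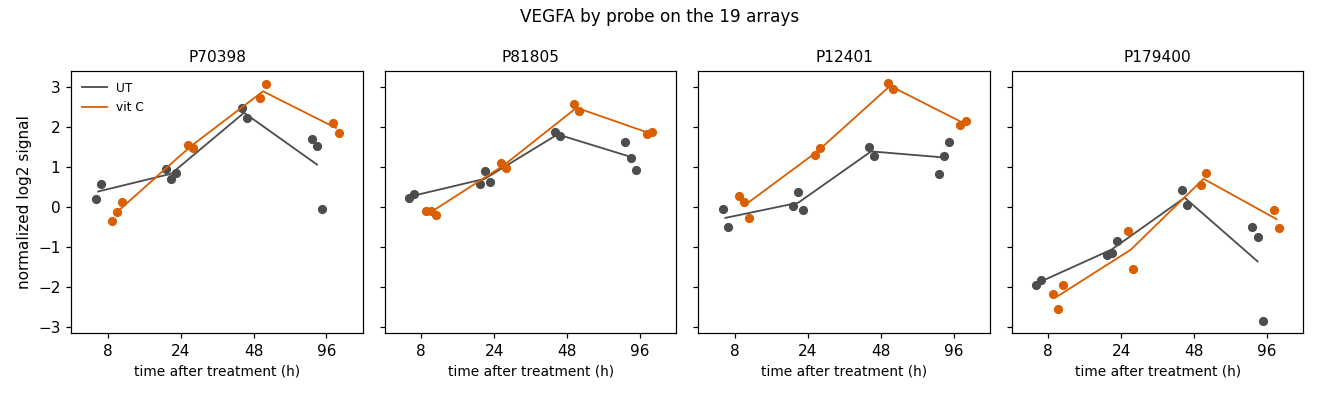
Normalized log2 signal (y axis) of the 4 VEGFA probes, each in its own panel, against time after treatment in h (x axis, evenly spaced). Each circle is an array, UT in grey and vit C-treated in orange, and lines join the group means. Each probe peaks at 48 h in both arms, and at 24 and 48 h the arms are furthest apart on P12401.

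HIF1A was lowest at 8 h in both arms, and its group means were higher with vit C than without. In UT cells it was 1.23 and 1.22 at 8 h, 2.09, 1.72 and 1.54 after 24 h, 1.90 and 1.91 after 48 h, and 1.89, 2.33 and 2.78 after 96 h. With vit C it was 1.35, 1.43 and 1.27 at 8 h, 2.08 and 2.43 after 24 h, 2.16 and 2.70 after 48 h, and 2.83 and 2.92 after 96 h. The vit C-treated arrays were above all UT arrays at 8, 48 and 96 h and overlapped with them after 24 h.

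The differences of HIF1A were small, 0.12 ± 0.26 at 8 h and 0.48 ± 0.26 after 24 h. They were 0.53 ± 0.28 after 48 h and 0.54 ± 0.26 after 96 h. With slide as a fixed block their sign turned, to -0.54, -0.19 and -0.40 at 8, 24 and 48 h. This block takes the gap between slides 1 and 2 from UT 96 h. There the slide 2 arrays, replicate 3 among them, differed from the slide 1 array by 0.66. The block was not fitted without replicate 3, so whether the sign depends on the slide is not settled. The 96 h level was 2.16-fold that at 8 h in UT and 2.88-fold in vit C-treated cells. On the log2 scale the UT value was 1.11 ± 0.26, and 0.89 without UT 96 h replicate 3. The array reads mRNA, and HIF1A protein, which the hydroxylases control, was not measured.

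EGLN1, the main oxygen-sensing hydroxylase, did not separate the arms on its brightest probe and was highest at 96 h. Its level was between 1.25 and 1.93 on the UT arrays of 8 to 48 h and between 1.05 and 2.01 on the vit C-treated ones. At 96 h it was 3.10, 2.65 and 2.60 in UT cells and 2.79 and 2.75 in vit C-treated cells, which is above every earlier array of either arm. The log2 difference between the arms was 0.03 at 8 h, -0.04 after 24 h, 0.05 after 48 h and -0.02 after 96 h, with an SE of 0.21 to 0.23, and the arms overlapped at each time point. The 96 h level of EGLN1 was 2.25-fold that at 8 h in UT and 2.18-fold in vit C-treated cells, and its other probes gave 1.22 ± 0.20 and 1.33 ± 0.20 on the log2 scale in UT cells. These 3 probes opposed each other in the sign of the small vit C differences at 8, 48 and 96 h. On the dimmest, P410363, the arms did not overlap at 8, 24 or 48 h, with differences of 0.27, -0.44 and -0.24, and on P343935 they did not overlap at 48 h (-0.27). The differences on the brightest probe with slide as a fixed block were 0.51, 0.43 and 0.67 at 8, 24 and 48 h.

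EGLN2 and HIF1AN showed no separation of the arms beyond the spread at most time points. EGLN2 differed by 0.12 ± 0.53 at 8 h, -0.31 ± 0.53 after 24 h, -0.02 ± 0.58 after 48 h and -0.08 ± 0.53 after 96 h. Its UT 96 h arrays were 1.03, 1.76 and -0.91, the last being replicate 3, and without it the 96 h difference was -0.85. HIF1AN differed by 0.01 ± 0.37, -0.47 ± 0.37, 0.58 ± 0.40 and -0.11 ± 0.37 in turn. At 48 h its vit C-treated arrays (-2.24 and -2.08) were above the UT arrays (-2.57 and -2.92), and at the other time points the arms overlapped. Without UT 96 h replicate 3 the 96 h difference of HIF1AN was -0.48.

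**Figure D3:**
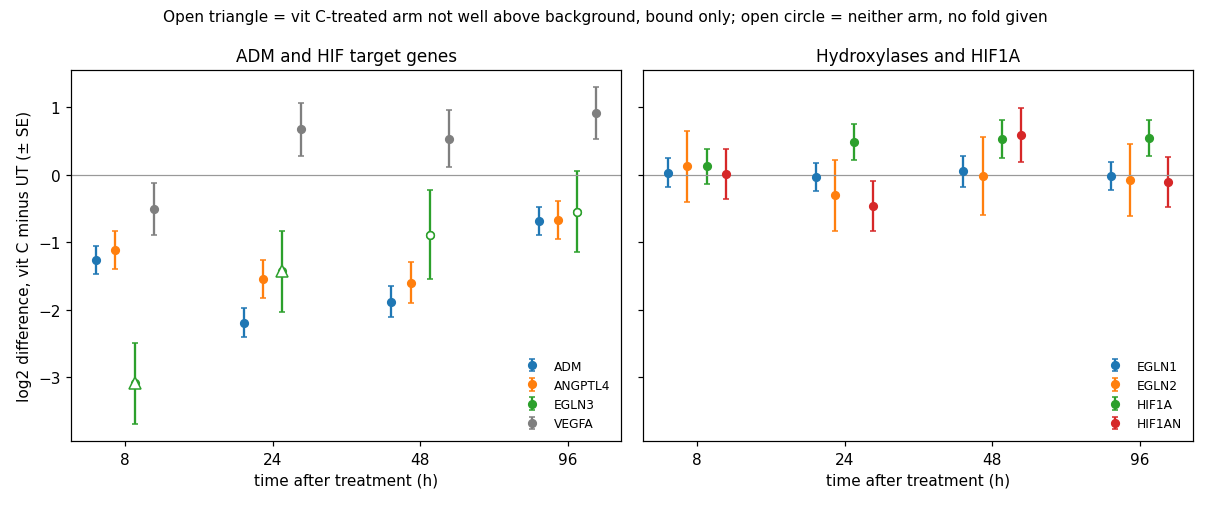
Log2 difference between vit C-treated and UT cells (y axis, vit C minus UT) at 8, 24, 48 and 96 h (x axis, evenly spaced), with circles for the estimate on the brightest probe and bars for its SE from the fit over 19 arrays. Open triangles mark EGLN3 at 8 and 24 h, where the vit C-treated arm was not well above background, so that the plotted value is no exact difference. Open circles mark EGLN3 at 48 and 96 h, where neither arm was and no direction is read. ADM and ANGPTL4 lie below 0 at all 4 time points, VEGFA lies below 0 at 8 h and above it later, and EGLN1 stays within 0.05 of 0.

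A gene was called where a probe had an absolute log2 difference of at least 1 and a limma q of at most 0.05, after genes whose probes opposed each other had been removed. At 8 h 0.549% of 25136 genes were called, and of the 6 genes described here that were tested, ADM and EGLN3 were called lower. At 24 h 1.65% of 26109 genes were called, and ADM and ANGPTL4, of 7, were lower. At 48 h the share was 3.64% of 25438, with ADM and ANGPTL4 lower and VEGFA higher, on P12401, of 7. At 96 h 12.8% of 26337 genes were called and none of the 7 tested here. In the mean of the 4 time points the share was 3.46% of 26326, with ADM and ANGPTL4 lower and VEGFA higher, again on P12401, at 1.02 ± 0.13 against 0.40 ± 0.20 on the brightest probe. EGLN3 also passed there as lower, but no direction is read from its mean, which includes 48 and 96 h. With slide as a fixed block none of the 8 genes was called between the arms at 8, 24 or 48 h. This block could not be fitted at 96 h or in the mean. Calls over all genes fell with it too, from 138 to 9 in the 8 h comparison. They fell from 432 to 20 after 24 h and from 926 to 138 after 48 h. Why they fell was not tested. After normexp background correction ANGPTL4 and EGLN3 were not called at any time point or in the mean. With an array left out, ADM was called in 0 of 5 cases at 8 h, where its difference stayed between -1.31 and -1.18, and EGLN3 in 1 of 5, whereas ADM was called in 5 of 5 at 24 h and 4 of 4 at 48 h. ANGPTL4 was called in 3 of 5 such cases at 24 h (-1.65 to -1.46) and 2 of 4 at 48 h (-1.82 to -1.38), and VEGFA in 3 of 4 at 48 h. In the mean ADM and ANGPTL4 were called in 19 of 19 cases and VEGFA in 15 of 19. At 96 h VEGFA was called without UT 96 h replicate 3. Because the 8 genes were chosen for such values, nothing is read from these counts.

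Over time in UT cells 2.65% of 26089 genes were called between 8 and 24 h, none of them among the 8. Between 8 and 96 h 16.1% of 26520 were called, with VEGFA (on P12401, at 1.51 ± 0.25), EGLN1 and HIF1A higher and ANGPTL4 and EGLN3 lower. HIF1A was not called without UT 96 h replicate 3, EGLN3 was not without UT 8 h replicate 2 (-1.46), and neither was with slide as a fixed block, where HIF1A was at 0.67 and EGLN3 at -2.80. After normexp neither ANGPTL4 (-0.86 in place of -2.35) nor EGLN3 (-0.41 in place of -2.34) was called. In vit C-treated cells 5.61% of 26200 genes were called between 8 and 24 h, VEGFA among them. The difference between the vit C effects at 24 and 8 h, in which a constant difference between slides cancels, was called for 0.0314% of 25490 genes and for none of the 8. It was -0.93 ± 0.30 for ADM, -0.45 ± 0.39 for ANGPTL4 and 1.18 ± 0.55 for VEGFA on the log2 scale.

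How far the rest of the pathway moved was asked of a list of HIF pathway genes, of which 69 had a probe on the array. Of these, 60 were measured, meaning that their brightest probe exceeded background throughout at least 1 group. At 8 h none of the 49 genes tested passed by limma, against 0.549% of all genes, although 8 had an unadjusted p under 0.05. The methods' t-test with the same adjustment also gave 0, but it called only 12 of all genes. The 60 measured genes had a median log2 difference of -0.26, 49 being below 0 and 11 above, against a median of -0.08 over all 23159 measured genes. How many of all measured genes lay below 0 was not counted, so nothing is read from the 49. The 12 measured genes of glycolysis and glucose entry had a median of -0.28, from -0.56 to 0.13, and 0 of the 7 tested passed. In bulk RNA, fewer cells of a type and less RNA per cell cannot be told apart.

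At 24 h 3 of 55 list genes (5.45%) passed, all lower with vit C, against 1.65% of all genes tested. They were CXCR4, a chemokine receptor (-1.02 ± 0.19, limma q = 0.018), TGFB3, a growth factor of the TGF-beta family (-1.10 ± 0.18, limma q = 0.00942), and RAMP1, a coreceptor for CGRP and adrenomedullin-type peptides (-1.11 ± 0.19, limma q = 0.0128). CXCR4 had a mean level of 1.95 ± 0.30 (SD, n = 2) with vit C and 2.97 ± 0.28 (SD, n = 3) without, and RAMP1 had 3.35 ± 0.20 and 4.46 ± 0.06. With slide as a fixed block 0 of the 3 passed, when 20 of all genes were called. CXCR4 no longer passed without 24 h replicate 1 of either arm, nor RAMP1 without vit C 24 h replicate 2. After normexp only RAMP1 passed. The median of the measured list genes was -0.20, against -0.02 over all genes.

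At 48 h 3 of 49 (6.12%) passed, against 3.64% of all genes tested. DDIT4 (an inhibitor of mTOR signalling) was higher with vit C, at 1.63 ± 0.30 (limma q = 0.00975), as was STC2 (a secreted glycoprotein), at 2.24 ± 0.47 (limma q = 0.0185), and TGFB3 was lower, at -1.88 ± 0.20 (limma q = 0.000348). DDIT4 and STC2 no longer passed without UT 48 h replicate 2 or without either vit C-treated array. When slide was a fixed block, 2 of 56 passed, TGFB3 and BNIP3 (a mitophagy receptor), both lower, and neither DDIT4 nor STC2. RAMP1 was at -0.97 ± 0.21 at 48 h and -0.82 ± 0.19 at 96 h, under the fold threshold. The median of the list was -0.21 against -0.07.

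At 96 h 12 of 54 (22.2%) passed, 5 higher and 7 lower. Over all genes tested 12.8% were called, 716 higher and 2659 lower. The split of the list was 6 higher and 3 lower after quantile normalization, 5 and 2 when detected probes alone set the percentile and 5 and 4 with dim probes left out. The list median (-0.04) was that of all genes within 0.01 (-0.05). Among the 8 largest, on the passing probe, EPAS1 (the HIF-2 alpha subunit, at least 1.43-fold, its UT arrays not being well above background), EP300 (a HIF coactivator, 1.66 ± 0.41), ALDOC (a glycolytic aldolase, 1.54 ± 0.41), HK2 (hexokinase, 1.51 ± 0.34) and BNIP3L (a mitophagy receptor, 1.18 ± 0.31) were higher. ARNT2 (a HIF partner subunit, -1.84 ± 0.20) and ANGPTL2 (-1.55 ± 0.32) were lower, with limma q of 0.000135 to 0.0337 over these 7. For EPAS1, EP300, HK2 and BNIP3L the brightest probe did not pass. Of the 7 counted as lower, 3 had no direction to read, since the passing probe was not well above background on any array. They were RAMP2, ANGPTL1 and CALCRL, the receptor that binds adrenomedullin together with RAMP2 or RAMP3, named here after their values were seen. The count was 19 without UT 96 h replicate 3, and 1 or 2 without either vit C-treated array.

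**Figure D4:**
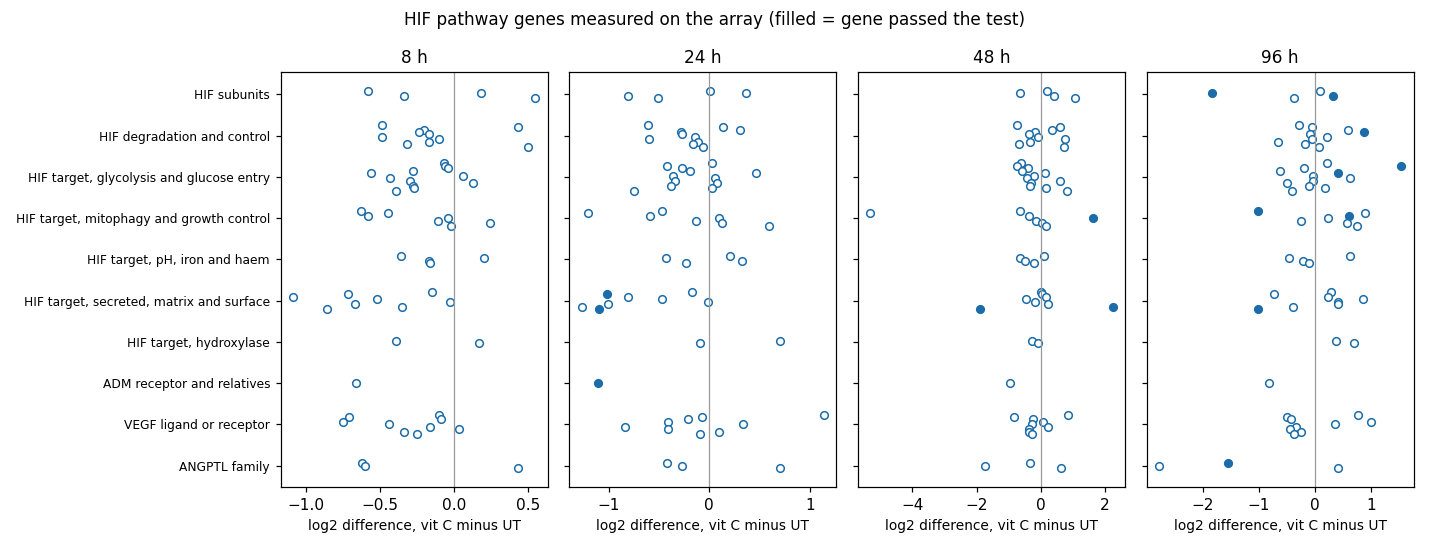
Log2 difference between vit C-treated and UT cells (x axis, vit C minus UT, scaled per panel) of the list genes measured on the array, by role (y axis), in panels for 8, 24, 48 and 96 h. Each circle is the brightest probe of a gene, filled where any probe of that gene passed. No circle is filled at 8 h, 3 are filled after 24 h and 3 at 48 h.

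TGFB3 was the list gene that passed in the mean of the 4 time points, at -1.21 ± 0.09 (limma q = 5.19e-06, 1 of 53 tested), and no comparison of vit C with UT called it higher. In UT cells it rose by 1.56 ± 0.18 from 8 to 24 h and differed by -5.08 ± 0.18 at 96 h from 8 h. CXCR4 (1.41 ± 0.19), VEGFC (a lymphangiogenic growth factor, 1.14 ± 0.28) and FLT1 (a VEGF receptor, 1.65 ± 0.24) also rose in UT cells from 8 to 24 h, making 4 of 51 list genes, all on slide 1. Over all genes tested 2.65% were called in UT cells from 8 to 24 h. In vit C-treated cells 5 of 50 list genes passed over the same interval, on slide 2, against 5.61% of all genes. They were HK2 (1.58 ± 0.24), CXCR4 (1.12 ± 0.19), TGFB3 (1.32 ± 0.18) and VEGFC (1.30 ± 0.28), which rose, and RAMP1 (-1.35 ± 0.19), which fell. None of 48 list genes passed in the difference between the vit C effects at 24 and 8 h by limma, and 6 had an unadjusted p under 0.05.

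From 8 to 96 h in UT cells 14 of 56 list genes (25%) passed, 6 higher and 8 lower, against 16.1% of all genes tested. Among the 8 largest were STC2 (4.61 ± 0.43), CXCR4 (3.42 ± 0.19), DDIT4 (2.98 ± 0.28) and ANGPTL2 (2.53 ± 0.47), which rose, and TGFB3, HMOX1 (haem oxygenase, -2.40 ± 0.25) and FIGF (VEGF-D, -2.28 ± 0.44), which fell. FIGF was not well above background at 96 h, so its fall was at least 3.81-fold, and ANGPTL2 was not at 8 h, which makes its rise at least 4.20-fold. Of the 10 PPAR target genes, ANGPTL4 not included, 4 of 9 tested fell in UT cells over this interval, namely CPT1A, ADFP, SLC25A20 and FABP4, by 1.12 to 3.17 on the log2 scale. No PPAR target passed between the arms at 8, 24 or 96 h. ADFP (a lipid droplet protein) was higher with vit C at 48 h (1.13 ± 0.22, limma q = 0.0126), and in vit C-treated cells it fell between 8 and 24 h (-1.06 ± 0.20, limma q = 0.00473).

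Markers of other cell types also moved with time or arm. The summed linear signal of the 3 B cell markers, as a multiple of the 75th percentile, was 1.34 to 2.01 in UT and 3.43 to 3.84 in vit C-treated cells at 8 h, and 1.80 to 2.47 and 3.59 to 4.89 at 48 h, while at 24 and 96 h the arms overlapped. The 8 macrophage markers summed to 331 to 381 in UT and 305 to 364 in vit C-treated cells at 8 h, overlapped at 24 and 96 h, and were apart at 48 h, at 353 to 370 and 383 to 410. MS4A1, which defines B cells, was well above background on 1 array. The 3 fibroblast markers, of which COL1A2 was on no array, summed to 0.576 to 0.859 at 8 h and 3.53 to 4.19 at 48 h over both arms, the time point at which VEGFA was also highest. At 24 h these sums were apart, at 1.15 to 1.52 in UT and 2.19 to 2.67 in vit C-treated cells, and at 48 h they were 4.18 to 4.19 and 3.53 to 4.05. The 3 T cell markers summed to 0.141 to 0.156 in UT and 0.187 to 0.214 in vit C-treated cells at 24 h, and to 0.164 to 0.192 and 0.196 to 0.201 at 96 h. The 2 epithelial markers summed to at most 0.0985, lower with vit C at 8 h (0.0335 to 0.0648 against 0.0760 to 0.0843) and higher at 48 h (0.0931 to 0.0985 against 0.0661 to 0.0771) and 96 h (0.0770 to 0.0879 against 0.0616 to 0.0754). Their part in the results was not tested.

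Over the 8 group means, ADM correlated with EGLN3 at r = 0.58, with ANGPTL4 at 0.31 and with VEGFA at -0.44, and ANGPTL4 correlated with EGLN3 at 0.77. The genes that share most of the pattern of ADM among 17291 candidates were TMEM9B (r = 0.963), ZNF395 (0.944) and CD612636 (0.944). Those for ANGPTL4 were MYO10 (0.987), WNT5B (0.987) and MAST3 (0.983), and those for VEGFA were HsapiAL122041 (0.983), RASSF8 (0.978) and ITPR3 (0.977). For EGLN3, whose levels are mostly bounds, they were RNF208 (0.973), MRGPRE (0.943) and RPL3L (0.935). These are descriptions over 8 points that share arrays and slides, and the range of TMEM9B over the groups, 0.67 on the log2 scale, was smaller than the 2.35 of ADM.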

How the data were processed

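Total RNA of 19 flasks was labelled with Cy3 and hybridised, 1 RNA per array, to a custom Agilent human array. Per the file headers, the authors extracted the images with Agilent Feature Extraction 10.5.1.1. The deposited scanner files give the processed signal intensity, which is background-subtracted, with a flag for spots well above background, and no spot was saturated. The authors' table holds log2 values after 75th percentile normalization. For 99.9% of its probes it equals log2 of the processed signal minus a constant per array, within 0.01 (column medians -3.36 to -3.19).

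Control spots were left out, spots of a probe averaged, and log2 signals shifted by each array's 75th percentile. limma 3.58.1 (R 4.3.3) fitted 8 group means, with Benjamini-Hochberg adjustment over all genes tested, after genes with opposing probes were removed, as in the study's methods. The code was tested on simulated data. A group not well above background on any array gives only a bound. The number of arrays limits precision, and p-values measure the spread between flasks of 1 line. The 8 genes and all gene lists were chosen with earlier results of these data known. Named list genes are those that passed (the 8 largest where more did), and for ADM, ANGPTL4, EGLN3 and VEGFA the 3 genes with the most similar group means among genes well above background on all arrays. Alternatives covered background correction (normexp with an offset of 50 signal units), normalization, filters, test, slide and replicate blocks, and each array left out. The promoters are RefSeq's. Array symbols are old in part (BHLHB2 is BHLHE40, FIGF is VEGFD, ADFP is PLIN2). The list genes P4HTM and ANGPTL8 had no probe. Some genes of the lists are counted but not reported by name here.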

Additional observations from a re-analysis of the deposited data

Results flagged for a closer look

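On the brightest probe of VEGFA the arms differed in opposite directions at different time points. The log2 difference between vit C-treated and UT cells was -0.51 at 8 h, where every vit C-treated array was below every UT array, and 0.67 at 24 h, 0.53 at 48 h and 0.91 at 96 h, where every vit C-treated array was above. The effects at 24 and 8 h differed by 1.18 ± 0.55, which did not pass in the fit, and the difference of 8 h from 48 and 96 h was not tested. The probes of VEGFA opposed each other at 8 and 24 h, P12401 being at 0.31 at 8 h with overlapping arms and P179400 at -0.01 at 24 h. Without UT 96 h replicate 3 the 96 h value was 0.36. The arms lay on different slides, and with slide as a fixed block the 8 h value was 0.45. That block rests on UT 96 h, where the slide 2 arrays, replicate 3 among them, differed from the slide 1 array by -0.95.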

How the results depend on the processing

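The counts of HIF list genes that passed depended most on the test. The methods' t-test gave 0 at 24 h, 0 at 48 h, 0 at 96 h, 0 for UT and 0 for vit C-treated cells between 8 and 24 h, and 4 for UT between 8 and 96 h, where limma gave 3, 3, 12, 4, 5 and 14. Normexp background correction gave 1 at 24 h and 7 at 96 h, the percentile over probes detected on all arrays gave 7 at 96 h, and slide as a fixed block gave 0 at 24 h. Leaving out each array in turn gave 2 to 3 genes at 24 h, 1 to 3 at 48 h, 1 to 19 at 96 h, 1 to 3 in the mean of the 4 time points and 12 to 17 for UT between 8 and 96 h. The mean over 8, 24 and 48 h, chosen after seeing the data, gave 2 in place of 1. The replicate block gave 4 at 96 h and 2 in the mean, and moved no other count by over 1.5 times. Same-numbered arrays of the arms did not deviate together (r of -0.34 to 0.13 over 8 pairs, 1 of them over 0.1), so the numbers were not taken as pairs. No t-test was run for the mean or the difference of effects, and slide as a fixed block could not be fitted at 96 h or in the mean. The cause of these changes was not tested.

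Of 800 recomputed values of the 8 genes, 746 moved by less than 1 SD between replicates, 54 by more, and 0 called values changed sign. Among all genes, the share of calls that were higher was 58.7% at 8 h against 91.9% with normexp, 59.2% in the mean against 83.8%, and 21.2% at 96 h against 27.4% with normexp, 56.0% after quantile normalization and 50.9% when detected probes alone set the percentile. Normexp moved the median log2 difference of all genes from -0.05 to -0.23 at 96 h, from -0.02 to 0.13 for UT between 8 and 24 h, and from 0.06 to -0.12 in the difference of effects. Low signal limits EGLN3 throughout and ANGPTL4 at 96 h, and the ANGPTL4 differences at 8, 24 and 48 h were smaller with normexp. Its offset of 50 signal units by itself shrinks differences at such signals.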
